A study of Mus musculus with 17 samples.

Results

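The Clec4 and Clec7a myeloid lectins described here are 7 genes for cell-surface receptors of the C-type lectin family: Clec4a1, Clec4a2, Clec4a3, Clec4d, Clec4e, Clec4n and Clec7a. They were chosen by name, with their levels in these tumours already known, out of 19938 genes measured on the arrays. Each member was read by 1 probe set that carries no other symbol, so no choice between probe sets was needed. RNA from 17 mouse mammary samples of mixed strain background was hybridised to Affymetrix Mouse Gene 1.0 ST arrays, which report a log2 signal per probe set. Of the 12 tumours, 9 had lost Rb and p53. In 7 of these 9 the deletion was made by MMTV-Cre, a recombinase driven by a mammary tumour virus promoter that acts mainly in mammary epithelium; 5 of the 7 were labelled as transplants, 1 came from a nulliparous and 1 from a parous mouse. In the other two, called Ad-Cre here, the labels give Ad-CMVcre, an adenovirus that carries Cre under a viral promoter, and a transplant. The 3 p53 tumours lost p53 alone, through MMTV-Cre. The 5 normal mammary tissues were taken from Rb/p53 model mice. The labels give neither ages nor the host mice of the transplants.

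C-type lectin receptors bind sugars, glycolipids or proteins on microbes and on damaged cells, and in mice these 7 are carried mainly by macrophages, monocytes, neutrophils and dendritic cells. Clec4d (MCL), Clec4e (Mincle) and Clec4n (Dectin-2) are activating receptors: they signal through the adaptor Fcer1g to the kinase Syk and the scaffold Card9, and switch on cytokine genes. Clec7a (Dectin-1), the receptor for fungal beta-glucan, reaches Syk through a motif in its own tail. Clec4a2 (DCIR) carries an inhibitory tail motif that recruits phosphatases such as Ptpn6, and Clec4a1 and Clec4a3 are its close, less studied paralogs. In mammary tissue such receptors mark leukocytes rather than epithelium.

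In the RefSeq gene order of mouse chromosome 6, Clec4a1, Clec4a3, Clec4a2, Clec4n, Clec4d and Clec4e lie in 1 cluster, interleaved with Clec4a4, Clec4b1 and Clec4b2, and Clec7a lies apart on the same chromosome between Clec1a and Olr1. Promoter windows of 300 bases, 250 before to 50 after the annotated start site, were matched by symbol for 6 of the 7 members in the RefSeq table of GRCm38.p6. They are shown for the 2 pairs of members with the highest Pearson r over the 12 tumours, Clec4a1 with Clec4a3 (0.97) and Clec4d with Clec4e (0.94, but 0.80 without p53 replicate 2, below Clec4a2 with Clec4a3 at 0.87); for Clec4a3 the first of 2 windows is given. Capitals mark matches, on either strand, to GAGGAA, a core of sites of the myeloid factor PU.1, or to TTGCNNAA, a short form of the C/EBP site.
Clec4d, chr6:123261857-123262156, plus strand: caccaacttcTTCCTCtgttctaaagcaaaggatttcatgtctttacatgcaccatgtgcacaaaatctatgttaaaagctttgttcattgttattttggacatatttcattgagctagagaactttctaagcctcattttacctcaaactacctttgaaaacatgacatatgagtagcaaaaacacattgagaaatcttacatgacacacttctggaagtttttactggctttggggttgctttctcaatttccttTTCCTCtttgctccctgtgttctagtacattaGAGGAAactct
Clec4e, chr6:123289822-123290121, minus strand: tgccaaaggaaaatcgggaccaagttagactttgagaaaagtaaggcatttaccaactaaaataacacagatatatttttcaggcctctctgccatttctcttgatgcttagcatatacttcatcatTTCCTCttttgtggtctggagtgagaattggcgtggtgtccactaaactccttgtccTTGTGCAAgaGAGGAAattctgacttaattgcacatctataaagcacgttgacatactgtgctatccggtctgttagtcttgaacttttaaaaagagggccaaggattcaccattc
Clec4a1, chr6:122921598-122921897, plus strand: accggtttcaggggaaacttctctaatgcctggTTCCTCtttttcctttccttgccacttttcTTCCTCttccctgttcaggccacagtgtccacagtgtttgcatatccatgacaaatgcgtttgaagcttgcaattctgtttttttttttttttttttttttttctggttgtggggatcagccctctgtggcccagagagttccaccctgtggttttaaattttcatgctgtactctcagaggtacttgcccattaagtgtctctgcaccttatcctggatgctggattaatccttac
Clec4a3, chr6:122952265-122952564, plus strand: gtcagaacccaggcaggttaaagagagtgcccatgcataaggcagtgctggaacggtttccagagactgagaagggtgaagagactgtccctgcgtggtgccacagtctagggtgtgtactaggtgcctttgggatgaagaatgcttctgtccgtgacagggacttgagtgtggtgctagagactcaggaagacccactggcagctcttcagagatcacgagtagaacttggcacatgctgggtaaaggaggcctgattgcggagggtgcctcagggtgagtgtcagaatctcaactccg
GAGGAA matched 3 times in the Clec4d window, at positions -240, 7 and 39 from the start site, and 2 times in the Clec4e window, at -123 and -56. The Clec4e window also held a TTGCNNAA match at -66. The Clec4a1 window held 2 matches to GAGGAA, at -217 and -187, the Clec7a window 1, at -96, and the Clec4a2 and Clec4a3 windows 0. Of all 32841 windows of this length, 28.3% held GAGGAA and 10.8% held TTGCNNAA, so a match is common, and it is a description of letters and not a site. Of the members' 6 windows, 1 held the AP-1 letters TGANTCA (Clec4a2; 7.8% of all windows) and 0 held a short form of the NF-kB site (5.6% of all windows).

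Rb1 was lower in the Rb/p53 tumours (9.29 to 9.92) than in the p53 tumours (10.40 ± 0.54, SD, n = 3) and the normal tissues (10.93 to 11.50); Trp53 was not analysed here. The array of p53 replicate 2 stood apart from all others (Pearson r of 0.888 to 0.915 with them, against 0.929 to 0.992 among the rest). Its signals were also compressed. The 25th percentile was 6.80, against 6.37 to 6.50 on the other arrays, and the interquartile range 2.39, against 2.91 to 3.18. Values are therefore also given without this array, and what the compression contributes to its levels was not tested. One label conflict concerns p53 replicate 3: its title points to Rb/p53, its source name, description and tissue to p53 deletion alone, and it was placed by the latter. Its Rb1 level was 10.27, above all 9 Rb/p53 arrays, and that of p53 replicate 1 was 9.93. Normal tissue was rich in fat (Adipoq, the adipocyte hormone adiponectin, 12.95 ± 0.29, SD, n = 5, against 6.77 ± 0.86 in the 9 Rb/p53 tumours). In such bulk RNA fewer cells of a type and less RNA per cell cannot be told apart, and what the tissues' make-up contributes to the values below was not tested.

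The activating receptors Clec4d, Clec4e and Clec4n and the inhibitory receptor Clec4a2 were higher on every one of the 12 tumour arrays than on any of the 5 normal arrays. Clec4a1, Clec4a3 and Clec7a were not: on 5 of 12 tumour arrays each exceeded all normal arrays, and on the others it lay within or below their range. Thus 4 of 7 members did not overlap with normal tissue in either genotype; over all genes this held for 7.90% in the higher direction in Rb/p53 and 9.87% in p53 tumours. Because the members were chosen on these samples, the count is a description and no test is given. Both comparisons share the 5 normal arrays.

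**Figure D1:**
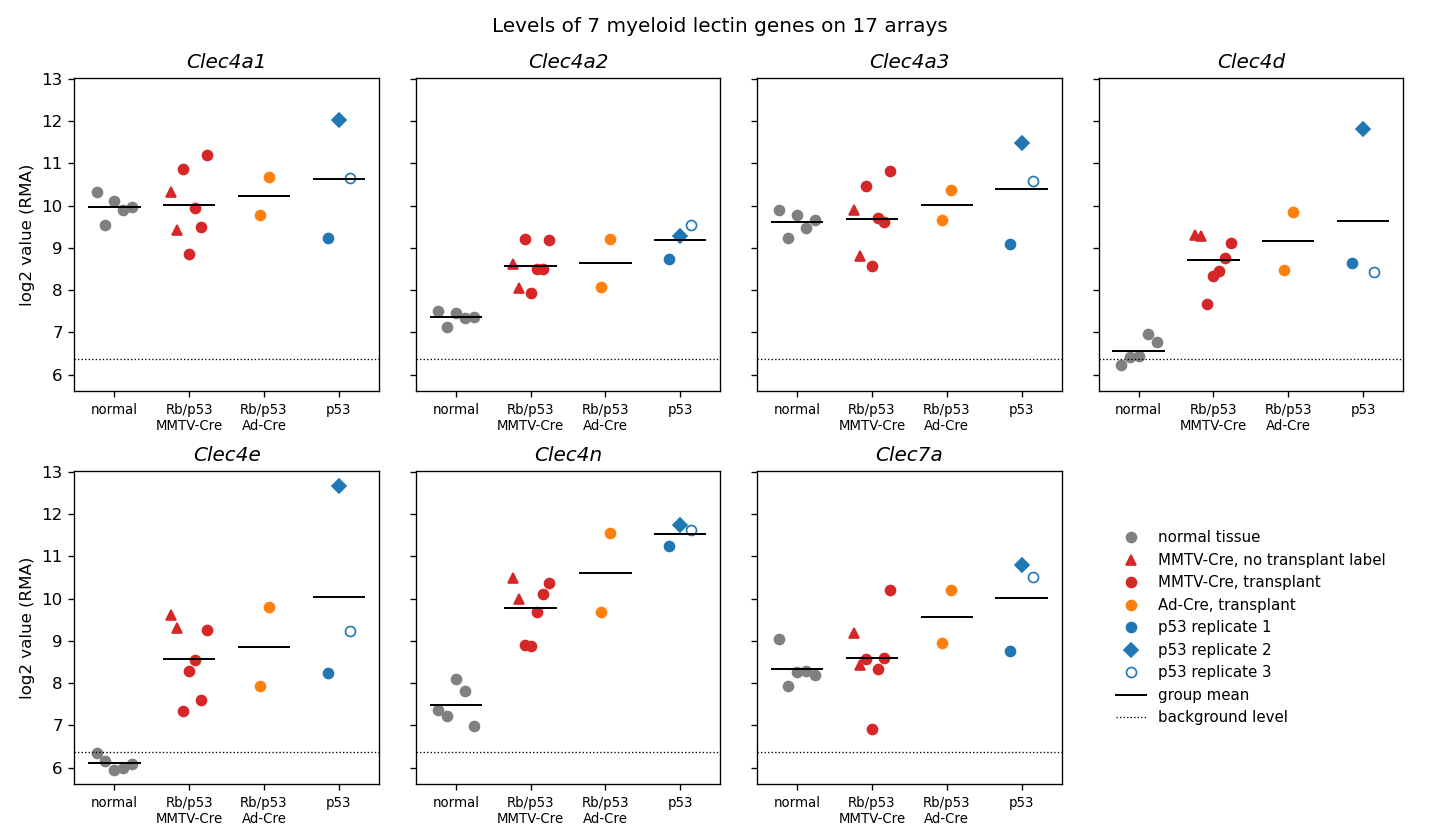
Log2 level of each lectin gene on every array (y axis) by group (x axis); each point is 1 array, the short line is the group mean and the dotted line the background level of 6.37. All 12 tumour points lie above all 5 normal points for Clec4a2, Clec4d, Clec4e and Clec4n, and the groups overlap for Clec4a1, Clec4a3 and Clec7a.

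Clec4e, the receptor for mycobacterial cord factor and for a nuclear protein freed from dead cells, stood on the normal arrays at 6.34, 6.16, 5.94, 6.0 and 6.08, all below the background level of 6.37, the lowest 25th percentile of all probe sets on any array. On the 7 MMTV-Cre Rb/p53 arrays it ran from 7.35 through a median of 8.55 to 9.61, on the Ad-Cre arrays it was 7.92 and 9.81, and on the p53 arrays 8.24, 12.67 and 9.23. Every tumour array was above every normal array, with a gap of 1.02 between the lowest tumour and the highest normal value, and p53 replicate 2 was far above all others. The mean differed from normal tissue by 2.53 ± 0.31 (SE from the groups' SDs) in the 9 Rb/p53 tumours and by 3.94 ± 1.34 in the 3 p53 tumours, or 2.63 without p53 replicate 2. Since the normal values are at background, these differences may understate the true ratio, which was not tested.

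Clec4d, the partner receptor of Clec4e with an overlapping range of glycolipid ligands, read 6.23, 6.42, 6.43, 6.95 and 6.77 in normal tissue, 1 of them below background. It ran from 7.66 through 8.75 to 9.30 on the MMTV-Cre Rb/p53 arrays, was 8.47 and 9.85 on the Ad-Cre arrays, and was 8.65, 11.82 and 8.43 in p53 tumours. The groups did not overlap (gap 0.70), and p53 replicate 2 again gave the highest value of all arrays. The difference from normal tissue was 2.24 ± 0.26 in Rb/p53 and 3.07 ± 1.10 in p53 tumours, which became 1.98 without p53 replicate 2, below the Rb/p53 value.

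Clec4n, the receptor for fungal mannans, was measured at 7.36, 7.22, 8.09, 7.81 and 6.98 in normal tissue. The MMTV-Cre Rb/p53 arrays ran from 8.88 through 9.98 to 10.49, the Ad-Cre arrays gave 9.69 and 11.54, and the p53 arrays 11.25, 11.74 and 11.61. The p53 values lay close together and above 8 of the 9 Rb/p53 values, the exception being Ad-Cre replicate 2. The difference from normal tissue was 2.46 ± 0.34 in Rb/p53 and 4.04 ± 0.25 in p53 tumours, and the latter was 3.94 without p53 replicate 2, so that array did not set it.

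Clec4a2, the inhibitory receptor, read 7.50, 7.12, 7.46, 7.34 and 7.37 in normal tissue, the tightest of the normal groups (range 0.38). It ran from 7.94 through 8.51 to 9.20 on the MMTV-Cre Rb/p53 arrays, was 8.08 and 9.21 on the Ad-Cre arrays, and 8.73, 9.28 and 9.55 in p53 tumours. The groups stood 0.44 apart, the smallest gap of the 4 members that did not overlap. The difference from normal tissue was 1.23 ± 0.19 in Rb/p53 and 1.83 ± 0.25 in p53 tumours (1.78 without p53 replicate 2).

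Clec4a1 and Clec4a3, the paralogs of Clec4a2, lay above the normal mean in 6 and 8 of the 12 tumours. Clec4a1 read 10.32, 9.55, 10.11, 9.90 and 9.96 in normal tissue, 8.85 through 9.94 to 11.20 on the MMTV-Cre Rb/p53 arrays, 9.77 and 10.68 on the Ad-Cre arrays and 9.23, 12.03 and 10.64 in p53 tumours. Its mean differed from normal tissue by 0.09 ± 0.28 in Rb/p53 tumours, a sign that turned in 5 of the alternatives run (-0.08 under cyclic loess normalisation, for example), and by 0.66 ± 0.82 in p53 tumours, or -0.04 without p53 replicate 2. Clec4a3 read 9.90, 9.23, 9.77, 9.47 and 9.66 in normal tissue, 8.56 through 9.71 to 10.81 on the MMTV-Cre Rb/p53 arrays, 9.65 and 10.37 on the Ad-Cre arrays and 9.08, 11.48 and 10.59 in p53 tumours. Its differences were 0.16 ± 0.27 and 0.78 ± 0.71, and 0.23 in p53 tumours without replicate 2. For both genes the spread among tumours exceeded the distance to normal tissue: the tumour values spanned 3.18 and 2.92, the normal values 0.78 and 0.67. The Clec4a paralogs are alike in sequence, and whether a probe set also reads RNA of another paralog was not tested.

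Clec7a read 9.04, 7.93, 8.26, 8.29 and 8.20 in normal tissue. On the MMTV-Cre Rb/p53 arrays it ran from 6.91 through 8.56 to 10.19, on the Ad-Cre arrays it was 8.95 and 10.19, and in p53 tumours 8.76, 10.79 and 10.51. The lowest value of all 17 arrays was that of Rb/p53 MMTV-Cre replicate 4, and 10 of 12 tumours lay above the normal mean. The difference from normal tissue was 0.47 ± 0.38 in Rb/p53 and 1.68 ± 0.66 in p53 tumours (1.30 without p53 replicate 2).

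**Figure D2:**
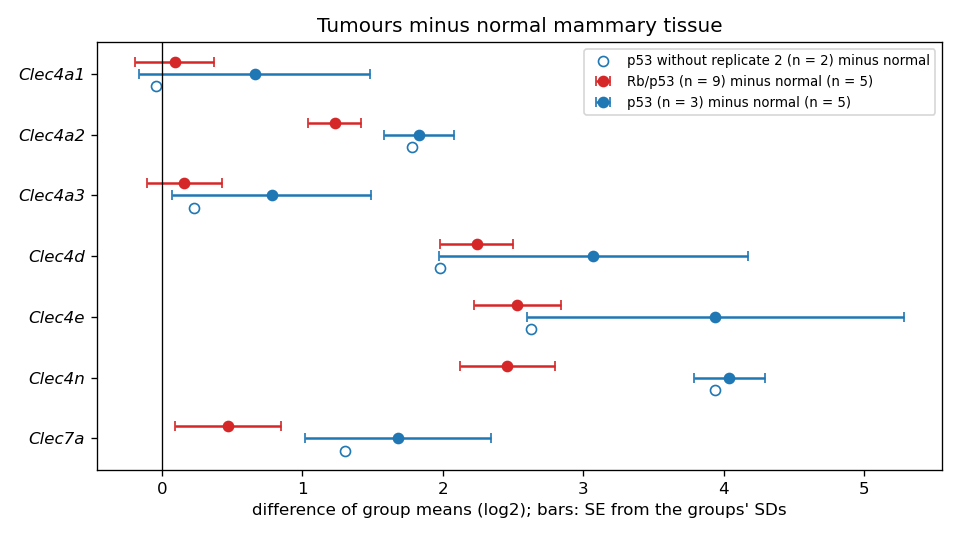
Difference of group means from normal tissue in log2 units (x axis) for each lectin gene (y axis), with SE bars from the groups' SDs; open points leave out p53 replicate 2. Clec4e, Clec4n and Clec4d have the highest differences in Rb/p53 tumours (2.53, 2.46 and 2.24) and Clec4a1 the lowest (0.09).

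In all 7 genes the group means stood in the same order: normal tissue, Rb/p53 MMTV-Cre, Rb/p53 Ad-Cre, p53. Without p53 replicate 2 this held for 3 of 7: the p53 means then lay below the Ad-Cre means for Clec4a1 (9.93 against 10.22), Clec4a3 (9.84 against 10.01), Clec4d (8.54 against 9.16) and Clec4e (8.74 against 8.87). The place of Ad-Cre tumours rests on 2 arrays that lie far apart. Neighbours in that order overlapped between MMTV-Cre and Ad-Cre and between Ad-Cre and p53 tumours for each gene. The step from normal tissue to MMTV-Cre tumours was free of overlap for the 4 members named above. The median of the 7 differences from normal tissue was 1.23 in Rb/p53 and 1.83 in p53 tumours, beside 0.031 and 0.086 over all genes.

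Between genotypes, Rb/p53 tumours had lower means than p53 tumours for all 7 members, from -0.57 ± 0.85 (Clec4a1) to -1.57 ± 0.31 (Clec4n). For 0 of 7 were the groups free of overlap; over all genes 1.47% were lower and 1.67% higher without overlap. Without p53 replicate 2 the median difference of the members went from -0.83 to -0.11, and the values were 0.13 for Clec4a1, -0.56 for Clec4a2, -0.08 for Clec4a3, 0.26 for Clec4d, -0.11 for Clec4e, -1.47 for Clec4n and -0.82 for Clec7a. When each array was left out in turn, the median ran from -1.32 to -0.11. The lower mean of Rb/p53 tumours thus rested on p53 replicate 2 for Clec4a1, Clec4a3, Clec4d and Clec4e. It remained over 1 log2 unit for Clec4n alone. Most Rb/p53 tumours were labelled as transplants and no p53 tumour was, so genotype and transplantation cannot be fully told apart here. In all these values p53 replicate 3, whose title points to Rb/p53, was counted as p53. Counting it as Rb/p53 gave far more calls between the genotypes over all genes, as listed below under the dependence on processing.

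Among Rb/p53 transplants, Ad-Cre tumours (n = 2) had means above MMTV-Cre tumours (n = 5) for 6 of 7 members, by at most 1.05 ± 0.81 (Clec7a) and 1.03 ± 0.97 (Clec4n); the difference of Clec4a2 was -0.02 ± 0.62. The 2 Ad-Cre arrays were far apart, replicate 2 being the higher for every member, for example 11.54 against 9.69 for Clec4n. Without Ad-Cre replicate 2 the median difference of the members was -0.17 and without replicate 1 it was 1.39, against 0.66 with both. No order between the 2 ways of deletion can be read from these arrays.

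Transplanted and other MMTV-Cre Rb/p53 tumours were not groups by which the members had been chosen, and here the members were tested with limma over all genes. The members' levels on these arrays were known when they were chosen, so the p-values and counts below are descriptions. Clec4d was 9.30 and 9.29 in the 2 tumours without a transplant label and 7.66, 8.34, 8.44, 8.75 and 9.12 in the 5 transplants, a difference of -0.83 ± 0.35 (SE). Clec4e was 9.61 and 9.30 in the former and 7.35, 8.29, 8.55, 7.60 and 9.25 in the latter, a difference of -1.24 ± 0.49. For both genes all 5 transplants lay below both other tumours. Neither passed after Benjamini-Hochberg adjustment in limma (adjusted p = 0.628 and 0.624; unadjusted p = 0.0493 and 0.0387), and 0 of 7 members did, beside 0.0251% of all genes; at an unadjusted p under 0.05 it was 2 of 7 members, beside 7.92% of all genes. The groups did not overlap for 2 of 7 members, both lower, beside 5.46% of all genes. Clec4n differed by -0.65 ± 0.45, Clec7a by -0.28 ± 0.76, and the Clec4a genes by 0.19 ± 0.64 to 0.48 ± 0.61, all with limma adjusted p of 0.711 to 0.944. Parity differs between the 2 unlabelled tumours, and host and transplantation cannot be told apart here.

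Across the 12 tumours the members were related to each other to very different degrees. The correlations are descriptions over arrays that share normalisation, with no test. Clec4a1 and Clec4a3 had a Pearson r of 0.97 (Spearman rho 0.97), which was 0.95 without the 2 tumours farthest from the median and 0.96 without p53 replicate 2. Clec4d and Clec4e had an r of 0.94 (rho 0.78), which fell to 0.74 and 0.80 in the same way. Clec4n and Clec7a had an r of 0.82 (rho 0.87; 0.70 and 0.77). Clec7a was as close to Clec4a3 (r = 0.86; 0.82 without p53 replicate 2) and Clec4a1 (0.83; 0.78), and Clec4a2 to Clec4a3 (0.86; 0.87). Without p53 replicate 2 the lowest values were those of the 3 Clec4a genes with Clec4d (0.02 to 0.12). Over all tumours Clec4a3 and Clec4d had an r of 0.50 (rho 0.26), which was -0.10 without the 2 farthest tumours and 0.04 without p53 replicate 2, so it rested on them. Clec4d with Clec4n had an r of 0.65 over the 12 tumours and 0.92 in the 9 Rb/p53 tumours. Rb/p53 MMTV-Cre replicate 3 showed the split within 1 tumour, with the lowest Clec4d and Clec4e of all tumours (7.66 and 7.35) beside a Clec4a3 of 10.47 that exceeded all normal tissues.

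**Figure D3:**
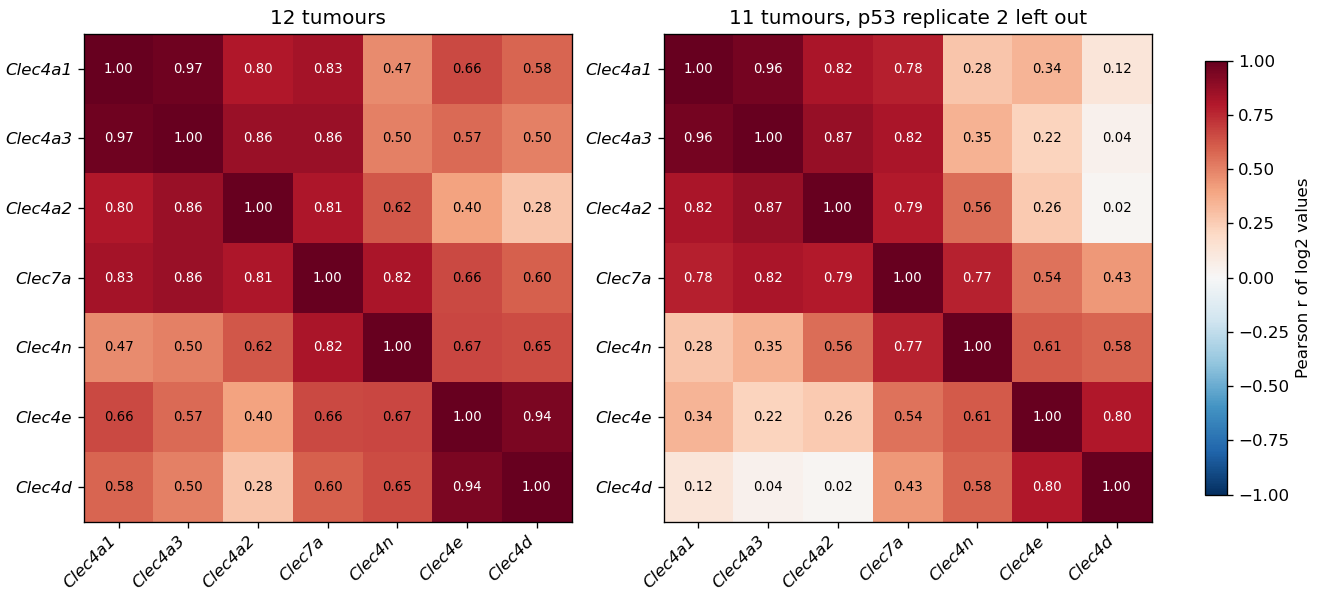
Pearson r between the log2 levels of the 7 lectin genes (both axes) over the 12 tumours (left) and the 11 tumours without p53 replicate 2 (right); the colour and the number in each cell give r. Clec4a1 with Clec4a3 stays at 0.96 and Clec4d with Clec4e at 0.80 on the right, while Clec4a3 with Clec4d goes from 0.50 to 0.04.

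The members also differed in which cell markers they followed over the tumours. Clec4a3 and Clec7a followed the mean of 10 general leukocyte markers (r = 0.94 each; 0.92 and 0.94 without p53 replicate 2) and less so that of 14 neutrophil markers (0.62 each; 0.36 and 0.46). Between these 2 lists Clec4d had the reverse pattern, with an r of 0.82 for neutrophil and 0.65 for leukocyte markers (0.55 and 0.31 without p53 replicate 2). Clec4e had 0.74 for leukocyte and 0.72 for neutrophil markers, which went to 0.51 and 0.30. Macrophage markers had an r of 0.86 with Clec4a3, 0.88 with Clec7a, 0.72 with Clec4d and 0.82 with Clec4e. Without p53 replicate 2 these were 0.79, 0.89, 0.27 and 0.54. For Clec4d, mast cell and basophil markers had an r of 0.43. Without p53 replicate 2 it was 0.76, above that of the neutrophil markers. The difference between these correlations was not tested.

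**Figure D4:**
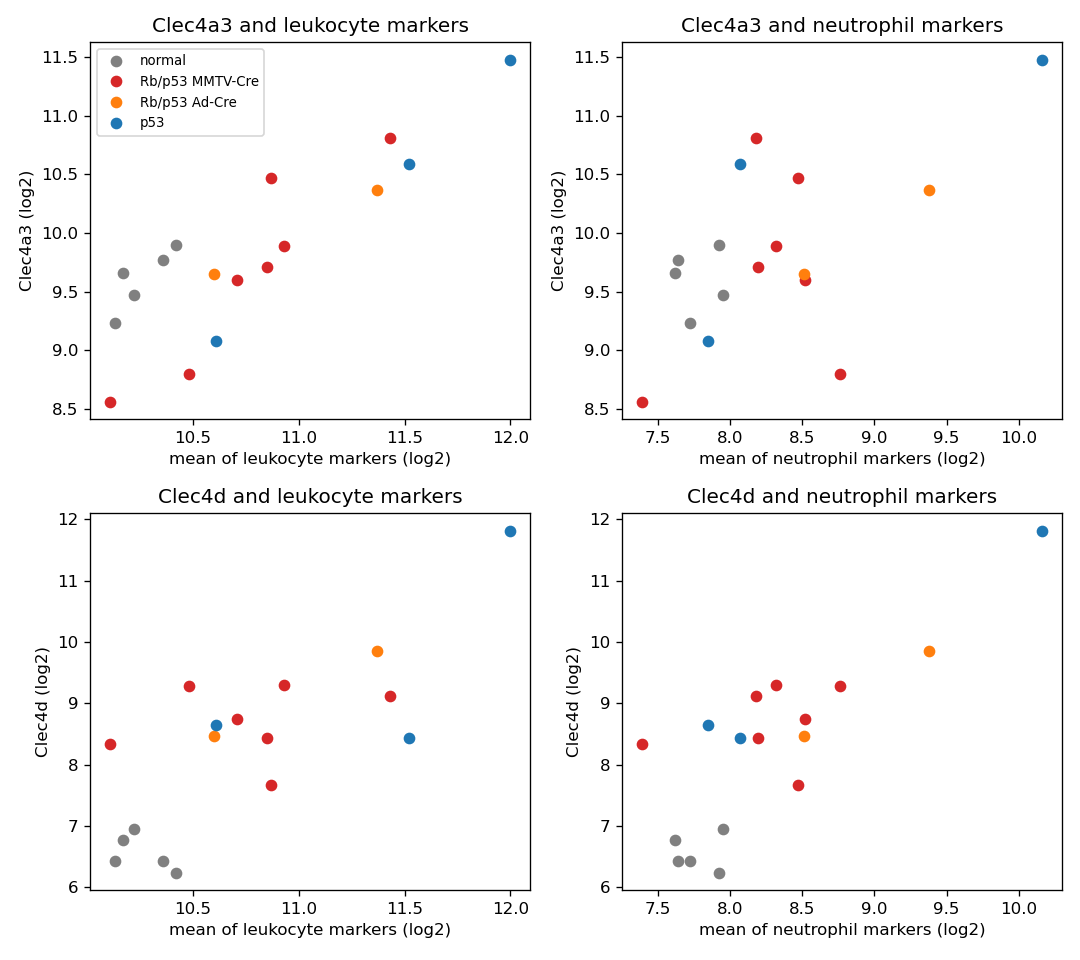
Log2 level of Clec4a3 (top) and Clec4d (bottom) against the mean log2 level of the leukocyte markers (left) and the neutrophil markers (right); each point is 1 of the 17 arrays. Clec4a3 rises with the leukocyte markers over the tumours (r = 0.94), and for Clec4d the 5 normal arrays lie below all 12 tumours.

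The marker lists themselves were measured as follows. The mean of the leukocyte markers lay at 10.13 to 10.42 on the normal arrays, 10.11 to 11.43 in Rb/p53 and at 11.38 ± 0.71 (SD, n = 3) in p53 tumours. That of 22 macrophage markers lay at 9.85 to 10.26, 9.97 to 10.99 and 10.47 to 11.90, and that of neutrophil markers at 7.62 to 7.95, 7.39 to 9.38 and 7.85 to 10.16, in the same order. In limma over all genes, 3 of 10 leukocyte markers were higher and 0 lower in Rb/p53 tumours (beside 14.2% and 13.4% of all genes), and 6 were higher and 0 lower in p53 tumours (beside 8.34% and 12.1%). These shares of all genes also stand beside every list count against normal tissue below that uses all arrays. Of the macrophage markers 8 rose and 3 fell in Rb/p53 tumours, and 14 rose and 0 fell in p53 tumours. Msr1, a scavenger receptor, rose by 2.44 ± 0.27 and 3.79 ± 0.36 (limma adjusted p = 4.10e-06 and 1.14e-06). Here and below, the ± of list genes is the limma SE, which pools the spread over the groups of the fit. The SE of the members against normal tissue came from the groups' own SDs, so the 2 kinds of SE cannot be compared. Those that fell in Rb/p53 tumours, Cd163, Lyve1 and Folr2, are known from resident tissue macrophages, with differences of -2.23 ± 0.44, -2.02 ± 0.59 and -1.30 ± 0.32 (limma adjusted p = 0.00102, 0.0172 and 0.00598); all 3 calls were lost with the 2 Rb/p53 tumours that have no transplant label alone (adjusted p of 0.143, 0.485 and 0.187).

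Of 14 neutrophil markers 6 rose and 1 fell in Rb/p53 tumours, and 4 rose and 0 fell in p53 tumours. Cxcr2, the chemokine receptor of neutrophils, was below background on all normal arrays and rose by 3.33 ± 0.54 in Rb/p53 tumours (limma adjusted p = 2.04e-04). S100a9, a calcium-binding protein abundant in neutrophils, rose by 1.89 ± 0.52 (limma adjusted p = 0.0116, or 0.171 with those 2 tumours alone). The neutrophil marker that fell in Rb/p53 tumours was Ltf, with a difference of -2.22 ± 0.74 (limma adjusted p = 0.0335), and 7 of the 14 were not called. Ptprc (CD45), on all leukocytes, differed by 0.43 ± 0.24 in Rb/p53 tumours (limma adjusted p = 0.216) and rose by 1.21 ± 0.32 in p53 tumours (0.0126, but 0.0627 without p53 replicate 2). Of 12 dendritic cell markers 2 rose (Fscn1 and Itgax) and 6 fell in Rb/p53 tumours, among them Clec9a with a difference of -0.88 ± 0.13 (limma adjusted p = 1.03e-04), and 0 rose and 1 fell in p53 tumours. Without p53 replicate 2, the p53 tumours had 3 leukocyte markers higher and 0 lower, 8 macrophage markers higher and 1 lower, 2 neutrophil markers higher and 1 lower, and 2 dendritic cell markers higher and 1 lower. The part of these cell markers in the lectin levels was not tested.

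Of 22 measured adaptor and signalling genes, a list that also holds phosphatases of the inhibitory side, 8 rose and 1 fell in Rb/p53 tumours. The median difference over the list was 0.51. In p53 tumours 14 rose and 0 fell, with a median of 0.95; without p53 replicate 2 it was 12 and 1. The calls rose in number to 16 when arrays were weighted in the Rb/p53 comparison, and only 1 was left when the Rb/p53 group was limited to the 2 tumours without a transplant label.

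Fcer1g, the adaptor shared by Clec4d, Clec4e and Clec4n, lay at 11.04 to 11.77 on the normal arrays, with a median of 11.55. It ran from 11.82 through 12.50 to 13.12 on the Rb/p53 arrays, all above normal tissue, and was 11.88, 12.97 and 13.37 in order of level in p53 tumours. The difference was 1.02 ± 0.23 in Rb/p53 tumours (limma adjusted p = 0.00283) and 1.24 ± 0.30 in p53 tumours (0.00678). Card9, the scaffold that links Syk to NF-kB, lay at 7.55 to 7.93 in normal tissue, 7.95 to 9.10 in Rb/p53 and 8.50 to 9.48 in p53 tumours, without overlap. It rose by 0.77 ± 0.17 and 1.36 ± 0.22 (limma adjusted p = 0.00280 and 3.55e-04). Its partner Bcl10 rose by 0.59 ± 0.12 in Rb/p53 tumours (limma adjusted p = 0.00142).

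Syk, the kinase between the adaptors and Card9, differed by 0.30 ± 0.18 in Rb/p53 tumours (limma adjusted p = 0.260) and rose by 1.28 ± 0.24 in p53 tumours (0.00116). The exchange factor Vav1 rose in both, by 1.03 ± 0.27 and 1.85 ± 0.35 (limma adjusted p = 0.00814 and 0.00114). On the inhibitory side, the phosphatase Ptpn6, which binds tails such as that of Clec4a2, differed by 0.59 ± 0.23 in Rb/p53 tumours (limma adjusted p = 0.0722). In p53 tumours it rose by 1.15 ± 0.31 (0.0139), which became 0.89 and 0.0737 without p53 replicate 2. Cd37, a tetraspanin, was the gene that fell in Rb/p53 tumours, with a difference of -0.59 ± 0.20 (limma adjusted p = 0.0355); the call was lost in 8 of the alternatives run. With p53 replicate 3 counted as p53, 0 of the 22 passed in limma between Rb/p53 and p53 tumours, beside 0.00502% of all genes. At an unadjusted p under 0.05 it was 9, beside 20.6% of all genes.

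**Figure D5:**
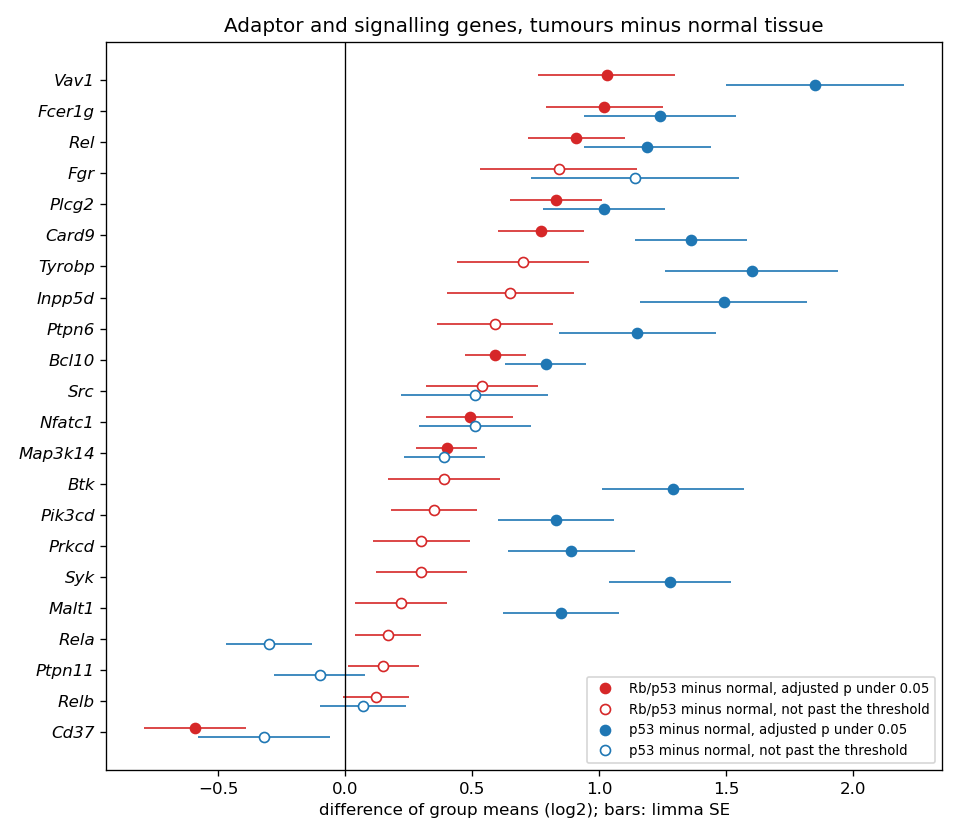
Log2 difference from normal tissue (x axis, with limma SE bars) for 22 adaptor and signalling genes (y axis) in Rb/p53 (red) and p53 tumours (blue); filled points passed an adjusted p of 0.05. Fcer1g and Card9 passed in both genotypes (1.02 and 0.77 in Rb/p53, 1.24 and 1.36 in p53), Syk in p53 tumours (1.28), and Cd37 lies below 0 in both.

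Among genes that these receptors can switch on, 11 of 25 rose and 0 fell in Rb/p53 tumours (median 0.36), and 13 rose and 0 fell in p53 tumours (median 0.98; 10 and 0 without p53 replicate 2). Il1b, an inflammatory cytokine, lay at 6.56 to 6.86 in normal tissue, ran from 7.14 through 9.40 to 11.71 in Rb/p53 tumours, and from 9.30 through 9.67 to 11.67 in p53 tumours, without overlap. It rose by 2.71 ± 0.54 (limma adjusted p = 0.00128) and 3.52 ± 0.71 (0.00202). Ptgs2, the inducible cyclooxygenase, rose by 3.84 ± 0.46 in Rb/p53 tumours and the chemokine Ccl3 by 2.48 ± 0.42 (limma adjusted p = 8.85e-06 and 2.88e-04). Il10 stayed below background on all arrays. These genes answer to many receptors, and which receptor acted was not measured.

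Other C-type lectins were called lower more often than higher in Rb/p53 tumours. Of 29 measured, 5 rose and 14 fell in Rb/p53 tumours (median -0.22), and 7 rose and 7 fell in p53 tumours (median -0.05; 3 and 9 without p53 replicate 2). Over all genes 14.2% rose and 13.4% fell in Rb/p53 tumours, and 8.34% rose and 12.1% fell in p53 tumours. Clec5a, a Tyrobp-coupled receptor of monocytes and neutrophils, lay at 6.66 to 7.48 in normal tissue and at 7.82 to 10.15 in Rb/p53 and 9.76 to 10.93 in p53 tumours, all tumours above all normal tissues. It rose by 2.19 ± 0.33 and 3.33 ± 0.44 (limma adjusted p = 1.05e-04 and 3.88e-05). Clec10a, a galactose-type lectin of macrophages and dendritic cells, lay at 9.18 to 10.38 in normal tissue and at 5.74 to 8.60 in Rb/p53 tumours, below all normal values, a difference of -3.07 ± 0.39 (limma adjusted p = 1.58e-05). Cd209d and Cd209b, of the DC-SIGN family, fell in Rb/p53 tumours, with differences of -4.61 ± 0.53 and -3.28 ± 0.15 (limma adjusted p = 5.44e-06 and 3.37e-11). Clec12a, an inhibitory myeloid lectin, differed by 0.20 ± 0.42 and 0.76 ± 0.55 (limma adjusted p = 0.798 and 0.333). Between the genotypes, with p53 replicate 3 counted as p53, 0 of 29 passed, beside 0.00502% of all genes. At an unadjusted p under 0.05 it was 8, beside 20.6% of all genes.

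Within the Clec4 cluster, 0 of the 3 genes that are not members rose in Rb/p53 tumours. Clec4b1 was below background on all 9 Rb/p53 arrays, all 3 p53 arrays and 3 of 5 normal arrays. It differed from normal tissue by -1.05 ± 0.18 in Rb/p53 tumours (limma adjusted p = 3.44e-04). Clec4b2, below background on all 5 normal and 7 of 9 Rb/p53 arrays, differed by 0.29 ± 0.15 (limma adjusted p = 0.177). Clec4a4, which was below background in normal tissue and Rb/p53 tumours, differed by 0.22 ± 0.18 (limma adjusted p = 0.429). Such low signals limit what the differences of these 3 genes can show. In p53 tumours the values were -0.64 ± 0.24, 0.52 ± 0.20 and 0.71 ± 0.24 (limma adjusted p = 0.0626, 0.0727 and 0.0439), the last becoming 0.33 and 0.276 without p53 replicate 2. Next to the cluster, the complement receptor gene C3ar1 rose by 1.15 ± 0.21 in Rb/p53 and 1.65 ± 0.27 in p53 tumours (limma adjusted p = 4.77e-04 and 3.27e-04), while Foxj2 differed by -0.07 ± 0.11 and -0.33 ± 0.15 (0.738 and 0.124). Necap1, between C3ar1 and Clec4a1, rose by 0.59 ± 0.12 in Rb/p53 tumours (limma adjusted p = 0.00160) and differed by 0.25 ± 0.16 in p53 tumours (0.264). On the other side, Vmn2r19, Vmn2r23 and Vmn2r24 were not called in Rb/p53 tumours (limma adjusted p of 0.559 to 0.789). In p53 tumours, with replicate 2 included, they differed by 0.59 ± 0.16, 0.39 ± 0.19 and 0.30 ± 0.10 (0.0168, 0.154 and 0.0406). Beside Clec7a, Clec1a, a lectin of endothelial cells, fell in both genotypes, with differences of -1.0 ± 0.18 and -1.05 ± 0.23 (limma adjusted p = 4.37e-04 and 0.00390), and the scavenger receptor gene Olr1 differed by 0.21 ± 0.16 and rose by 0.85 ± 0.20 (0.374 and 0.00705).

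Of the myeloid transcription factors 4 of 15 rose and 4 fell in Rb/p53 tumours, and 6 rose and 3 fell in p53 tumours (4 and 4 without p53 replicate 2). Over all genes the shares were 14.2% and 13.4% in Rb/p53 tumours, and 8.34% and 12.1% in p53 tumours. Spi1, which encodes PU.1, differed by 0.49 ± 0.24 in Rb/p53 tumours (limma adjusted p = 0.160) and rose by 1.10 ± 0.32 in p53 tumours (0.0224), a call lost without p53 replicate 2 (0.75, adjusted p = 0.127). Cebpb differed by 0.54 ± 0.21 and 0.71 ± 0.28 (limma adjusted p = 0.0689 and 0.0781). Runx1 rose by 1.01 ± 0.15 in Rb/p53 tumours (limma adjusted p = 6.45e-05, or 0.0630 with the 2 tumours that have no transplant label). Cebpa and Irf4 fell in Rb/p53 tumours, with differences of -1.83 ± 0.23 and -1.89 ± 0.13 (limma adjusted p = 1.51e-05 and 1.42e-08). Cebpa is also a factor of adipocytes, which the normal tissue holds, and their part in its difference was not tested.

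Over the 17 arrays the genes most like the mean of the 7 members were Itgam, an integrin chain of myeloid cells (r = 0.970), Rnf180 (0.970) and Nlrp3, the inflammasome sensor (0.969), followed by Plek, Cd53, Fcgr3, Ms4a6b, Slc15a3, Rab8b and Card9 (0.959). Over the 12 tumours they were Rnf180 (0.987), the costimulatory ligand Cd86 (0.972), Myo1g, Ikzf1, Cd53, Slfn2, Wdr81, Arhgap30, Selplg and Cyba. For single members over 17 arrays, Clec4d was nearest to S100a9 (0.951) and Trem1 (0.949), and Clec4e to Trem1 (0.959), an activating receptor of neutrophils and monocytes. Clec4n was nearest to Ms4a4a (0.962), Clec7a to Naip2 and the MHC class II loading gene H2-DMa (0.960 each), and Clec4a2 to Il21r (0.965). Clec4a1 was nearest to Naip6 (0.954) and Clec4a3 to Gna15 (0.959). These are the highest of many correlations and hold the differences between groups, so they describe likeness of pattern only.

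The mean of the 7 members, set against its normal mean, put the tumours in an order. Rb/p53 MMTV-Cre replicate 4 was lowest at 0.33, above the highest normal array (0.18), and the next 6 tumours lay between 1.01 (Ad-Cre replicate 1) and 1.22 (p53 replicate 1). MMTV-Cre replicate 1 reached 1.71, MMTV-Cre replicate 7 2.10, p53 replicate 3 2.16, Ad-Cre replicate 2 2.32 and p53 replicate 2 3.48. The Rb/p53 tumours thus ran from 0.33 to 2.32 and the p53 tumours from 1.22 to 3.48, so the genotypes overlapped.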

How the data were processed

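The values are log2 signals of 35556 probe sets on 17 arrays, deposited by the authors; per the submitters' processing notes they were made by RMA (background correction, normalisation between arrays, summary of probes) in Partek 5.6. The genome build is not given in the sources used here. Probe sets with exactly 1 gene symbol were used, and for each symbol the one with the highest mean, which left 19938 genes. The number of arrays limits the precision.

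Tests used limma 3.58.1 under R 4.3.3 (lmFit, eBayes, two-sided), with Benjamini-Hochberg adjustment over all genes and a threshold of 0.05; the fit was tested on simulated data. Tumours against normal tissue used 17 arrays as 3 groups, Rb/p53 against p53 the 12 tumours as 2 groups, Ad-Cre against MMTV-Cre transplants the 12 tumours as 4 groups, and transplants against other MMTV-Cre tumours 7 arrays. Members have no test where the groups chose them. Named genes were the members, up to 3 called genes of a list in each direction by size, a fixed set of pathway and marker genes, the genes most like the members, and neighbours. The members and the gene lists (also of T and NK, B, mast, fat, luminal, basal, fibroblast and endothelial cells) were chosen with earlier results of these data known. The tumours are labelled independent, while nothing says so of the normal tissues; p-values cover only the spread among the arrays at hand. Alternatives were other normalisations, filters, weights and groupings, and leaving out each array. Promoter windows are RefSeq's. Python 3.11.15 with pandas 2.3.3 was used for descriptions.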

Additional observations from a re-analysis of the deposited data

How the results depend on the processing

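Over the alternatives run, 187 values of the main counts and medians stayed close to the reported one and 8 did not; 23 of the members' differences changed sign under an alternative, 18 of them under 0.3 in size in the reported fit. The adaptor and signalling genes called in Rb/p53 tumours against normal tissue, 9 in the reported fit, numbered 16 with array weights and 1 with the 2 unlabelled (not transplanted by label) Rb/p53 tumours alone (6 to 12 when each array was left out). The other lectins called there, 19, became 11 with those 2 tumours (15 to 19 on leaving out each array). Between Rb/p53 and p53 tumours the adaptor genes called went from 0 to 1 with p53 replicate 3 counted as Rb/p53, and from 0 to 2 on leaving out each array, and the other lectins likewise from 0 to 2, both at 2 without p53 replicate 3; over all genes that move gave 1113 higher and 931 lower calls against 0 and 1. The members' median difference of Ad-Cre from MMTV-Cre transplants ran from -0.17 to 1.39. In transplants against other MMTV-Cre tumours the difference of Clec4a1 was 0.64 without replicate 1, -0.25 without replicate 2, 0.00 without replicate 3 and -0.09 without replicate 7, that of Clec4a3 was 1.03 without replicate 1 and -0.07 without replicate 2, and that of Clec7a was 0.10 without replicate 1, 0.12 without replicate 4 and -0.70 without replicate 7. The cause of these changes was not tested. The split of all calls in p53 tumours against normal tissue, 1663 higher and 2410 lower, was 2536 and 2264 after quantile normalisation again; in Rb/p53 tumours it was 2828 and 2675, and 2304 and 3103 under cyclic loess. Signals of Clec4e in normal tissue lie at background, which limits its differences. No paired analysis was possible because the replicate numbers are in accession order and pair no samples.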

Other observations

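Marker lists of cells that do not carry most of these lectins were counted in the same limma fit, adjusted over all genes. Against normal tissue, Rb/p53 tumours had 9 of 9 adipocyte markers lower (median difference -4.93), 10 of 13 luminal and 7 of 8 basal markers lower, and 4 of 10 fibroblast and 2 of 8 endothelial markers lower, with 0 higher in each of these lists. In p53 tumours the same lists had 9, 10, 6, 2 and 4 lower and 0 higher; without p53 replicate 2 it was 9, 10, 6, 1 and 1. Of 8 mast cell and basophil markers 6 were lower and 0 higher in both genotypes (4 in p53 tumours without replicate 2), among them Cpa3, a mast cell protease, by -4.33 ± 0.86 in Rb/p53 tumours (limma adjusted p = 0.00120). Among 14 markers of T and NK cells, 2 were higher (Gzmb and Prf1, the granule genes) and 3 lower (the T cell receptor chains Cd3g, Cd3e and Cd3d) in Rb/p53 tumours, and 2 higher and 0 lower in p53 tumours (1 and 0 without replicate 2). Of 9 B and plasma cell markers 1 was higher and 5 lower in Rb/p53 tumours, and 0 higher and 2 lower in p53 tumours (0 and 1 without replicate 2). Between Rb/p53 and p53 tumours 0 genes of these lists passed in limma. At an unadjusted p under 0.05 it was 7 T and NK, 3 B and plasma, 2 fibroblast and 1 luminal marker and 0 of the others. Over all genes this share was 20.6%.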
